A study of Mus musculus with 17 samples.

Results

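The libraries compared here are 6 of the 17 in the series, chosen by their labelled treatment: 3 from cells given the kinase inhibitor PP1 and 3 from cells given a MEK inhibitor (MEKi), all without 4-hydroxytamoxifen (4OHT). Each treatment has 1 library from each of clones a, b and c of mouse embryonic stem cells. What was measured is new RNA, the RNA that took up ethynyl uridine in the last 15 min of culture and was captured through it. The question the pair of treatments addresses is whether blocking the pathway at ERK itself or 1 step above it, at MEK, leaves the same transcription in cells whose pathway has not been switched on.

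All cells of the study are of the E14tg2a line on a 129SV background. In all of them both Erk1 and Erk2 were knocked out, a FLAG-tagged ERK2 Q103A cDNA took their place, and a cRAF-ErT2 cassette was stably expressed. All were grown in serum with LIF and 2 µM Chir99021, an inhibitor of GSK3, and 24 h before treatment the Chir99021 was replaced by PD173074 (250 nM), which blocks FGF receptors, in the controls too. PP1 was used at 2 µM and MEKi at 1 µM, and the time with an inhibitor alone is not clearly stated. The groups set beside this comparison are DMSO alone (clones b and c, n = 2), 4OHT at 250 nM for 2 h (n = 3), and 4OHT with MEKi or with PP1 (n = 3 each). The 3 clones are of 1 line and recur across the groups. Each p-value rests on the spread between libraries within groups, pooled over the 17 libraries with no term for clone. It does not measure the spread between lines or repeats of the experiment.

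In the ERK pathway the kinase RAF phosphorylates MEK, MEK phosphorylates ERK, and active ERK changes transcription of early genes and of genes for its own inhibitors, such as Sprouty proteins and dual-specificity phosphatases, which close a feedback loop. In embryonic stem cells the pathway, driven largely by FGF4, prepares cells to leave naive pluripotency, and inhibitors of MEK hold them in it. PP1 is known as an inhibitor of Src family kinases. The Q103A change enlarges the ATP pocket of ERK2 so that compounds of the PP1 type can occupy it. A MEK inhibitor leaves ERK unphosphorylated, whereas an inhibitor in the ATP pocket of ERK leaves MEK active.

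The 6 libraries held from 5239690 (PP1 clone a) to 9628690 (MEKi clone c) counts. PP1 clone a stood apart, with 42% of its counts in 14 high-count loci, against 15.1% to 32.6% in the other 5, and MEKi clone a had a background over long silent genes of 11.2 CPM (counts scaled to the library total) per megabase, against 4.20 to 4.49 in the other 5. Pearson's r of log2 CPM across genes was 0.976 to 0.989 between libraries of 1 treatment and 0.971 to 0.990 between libraries of the 2 treatments, so the ranges overlapped. All 10 embryonic stem cell markers were at 1 CPM or more, with a summed level of 3988 to 4156 CPM with MEKi and 3797 to 4506 CPM with PP1. Markers of fibroblasts summed to 566 to 651 CPM with MEKi and 549 to 775 CPM with PP1. Those of neuroectoderm summed to 60.2 to 64.7 and 65.1 to 73.6 CPM. Sums for primitive endoderm were 25.2 to 28.9 and 22.6 to 29.4 CPM, and for trophoblast 16.8 to 17.9 and 15.6 to 18.8 CPM. For 2-cell-like cells they were 0.679 to 2.52 and 0.980 to 2.89 CPM. Among these markers of other cells, 2 of 15 for fibroblasts reached 1 CPM (S100a4 was at 0 in all 6 libraries), 7 of 10 for primitive endoderm, 3 of 9 for trophoblast (Tpbpa at 0), 7 of 16 for neuroectoderm (Tubb3 at 0) and 0 of the 11 in the table for 2-cell-like cells (Tcstv1 and Tdpoz1 at 0). The levels of many were too low to test: between PP1 and MEKi the test covered 10 of the stem cell markers, 5 for fibroblasts, 7 for primitive endoderm, 5 for trophoblast, 7 for neuroectoderm and 1 for 2-cell-like cells, and 0 of these passed the edgeR quasi-likelihood test (at an unadjusted p under 0.05, 1 for stem cells and 1 for neuroectoderm). Mapk3, the symbol of ERK1, was at 11.8 ± 0.775 CPM with PP1 and 11.4 ± 2.55 CPM with MEKi (SD, n = 3). Counts per symbol include what is left of a knocked-out gene, so this does not check the genotype.

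Cells under PP1 made more new RNA than cells under MEKi from 11 genes, and no gene passed the test in the other direction. The 10 described here were Id3, Spry4, Dusp6, Spry2, Noct, Zfp819, Zfp36l1, Tiparp, Cdc42ep4 and Enc1, with log2 fold changes from 0.45 to 2.06 (1.36-fold to 4.17-fold). The 11 are 0.0738% of the 14907 genes tested with edgeR's quasi-likelihood test, where called means an adjusted p (Benjamini-Hochberg) under 0.05. The count of 0 genes lower with PP1 (0%) compares with 306 genes lower (2.05%) and 300 higher (2.01%) at an unadjusted p under 0.05, and with 1 lower gene by DESeq2 and 0 by limma-voom. Over all genes tested the median log2 fold change was -0.01 and the median standard error 0.15. In each of the 10 genes the lowest PP1 library lay above the highest MEKi library. Such separation was found in 3.21% of all genes with PP1 higher and in 4.19% with PP1 lower. PP1 was higher in 3 of 3 clones in each of the 10, which the rule for naming the largest rises required. The genes were called on these same libraries, so the separation is a description and not further support. Leaving out clone a, whose 2 libraries stood apart, gave 13 called genes, among them 9 of the 11 (all but Zfp36l1 and Enc1). The count fell to 6 without MEKi clone c, to 6 without PP1 clone b and to 7 without PP1 clone c, all of them among the 11. New RNA is given in CPM, relative to all captured RNA, so fewer cells with a transcript and less of it per cell cannot be told apart, and a change of all transcription at once would not be seen.

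**Figure D1:**
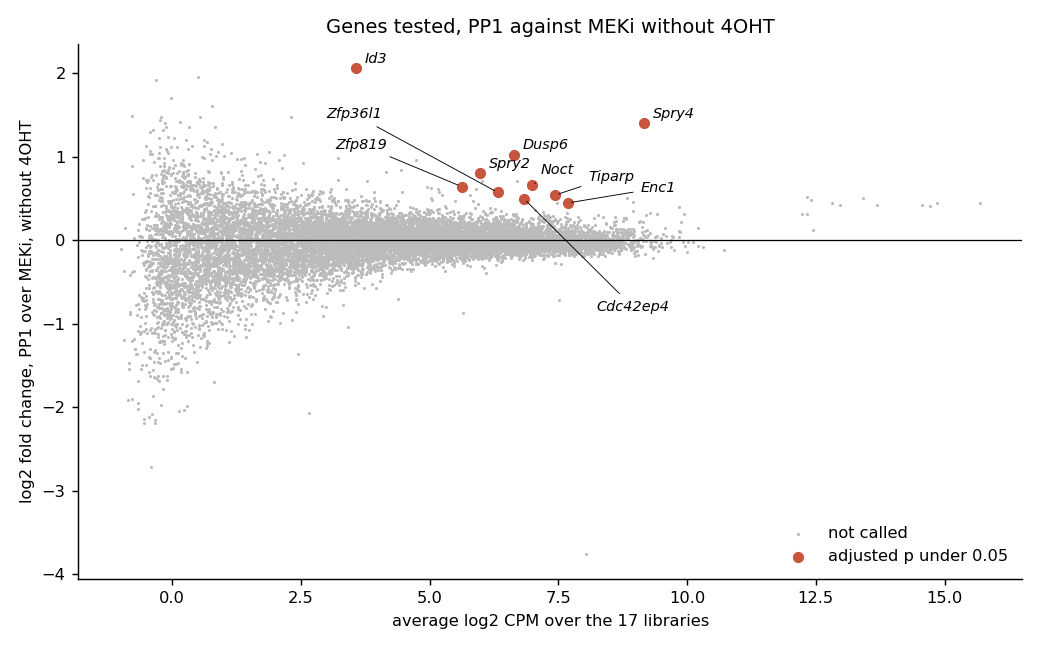
Log2 fold change of PP1 over MEKi without 4OHT (vertical axis) against the average log2 CPM over the 17 libraries (horizontal axis), with 1 point per gene. The 10 called genes described, named in red, all lie above 0, between 0.45 and 2.06, and the single grey point near -3.76 is Med24, which was not called.

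The feedback inhibitors of the pathway supplied 3 of the 11 called genes. Spry4 encodes a Sprouty protein, which dampens signalling from receptor tyrosine kinases to RAS and RAF. Its new RNA was at 50.3, 41.9 and 47.3 CPM in the PP1 libraries of clones a, b and c, and at 16.4, 19.3 and 16.98 CPM in the MEKi libraries. The groups lay far apart, and both lay below the DMSO libraries at 107 and 120 CPM. The log2 fold change was 1.40 ± 0.11 (SE; 2.64-fold; adjusted p = 4.8e-08, edgeR quasi-likelihood), the smallest p of the comparison.

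Dusp6 encodes the phosphatase that removes activating phosphates from ERK in the cytoplasm. It stood at 50.3, 49.1 and 47.7 CPM with PP1 and at 22.0, 31.1 and 20.4 CPM with MEKi, against 70.6 and 83.4 CPM in DMSO. The PP1 clones were almost level, and the MEKi library of clone b was the closest to them. The log2 fold change was 1.02 ± 0.11 (2.03-fold; adjusted p = 2.5e-05, edgeR quasi-likelihood). Spry2, another Sprouty gene, was at 56.7, 56.1 and 62.6 CPM with PP1 and at 31.3, 35.0 and 34.3 CPM with MEKi, against 70.2 and 82.0 CPM in DMSO. The 3 groups did not overlap, and Spry2 was higher with PP1 by log2 0.80 ± 0.09 (1.75-fold; adjusted p = 2.5e-05, edgeR quasi-likelihood).

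Id3, which encodes an inhibitor of basic helix-loop-helix transcription factors and is a known target of BMP signalling, showed the largest ratio. Its levels were low: 10.5, 10.9 and 9.68 CPM with PP1, 2.27, 4.25 and 1.46 CPM with MEKi, and 11.8 and 13.1 CPM in DMSO. PP1 libraries were close to DMSO and well above the MEKi ones, of which clone b was the highest; 3 counts were worth 0.291 to 0.491 CPM there. These rest on 41, 110 and 79 counts with PP1 and on 18, 26 and 15 with MEKi. The log2 fold change was 2.06 ± 0.23 (4.17-fold; adjusted p = 2.5e-05, edgeR quasi-likelihood), with clone differences of 2.10, 1.32 and 2.56. Its relatives did not pass the test: Id1 had a log2 fold change of 0.27, Id2 of -0.09 and Id4 of 0.31.

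Noct encodes nocturnin, a rhythmically expressed phosphatase of nicotinamide dinucleotides that was first described as a deadenylase. It was at 61.3, 70.6 and 63.7 CPM with PP1 and at 43.8, 38.8 and 41.6 CPM with MEKi, against 83.2 and 79.9 CPM in DMSO, a log2 fold change of 0.66 ± 0.10 (adjusted p = 0.0041, edgeR quasi-likelihood). Zfp36l1 encodes a protein that binds AU-rich elements and promotes mRNA decay. It was at 74.0, 77.7 and 72.2 CPM with PP1 and at 42.8, 57.2 and 51.0 CPM with MEKi, against 83.3 and 102 CPM in DMSO, a log2 fold change of 0.57 ± 0.10 (adjusted p = 0.0077). In both genes PP1 libraries lay between the other groups without touching them. Tiparp encodes a mono-ADP-ribosyltransferase induced by the aryl hydrocarbon receptor. It was at 140, 178 and 165 CPM with PP1 and at 112, 116 and 105 CPM with MEKi, against 204 and 190 CPM in DMSO, and differed by log2 0.54 ± 0.08 (adjusted p = 0.00067, edgeR quasi-likelihood). Here the PP1 library of clone a was the one nearest to MEKi.

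A single transcription factor gene of the KRAB zinc finger family, Zfp819, was among the 10. It was at 34.5, 50.1 and 46.9 CPM with PP1 and at 23.2, 33.4 and 29.6 CPM with MEKi, against 47.4 and 41.8 CPM in DMSO. Its PP1 and DMSO libraries overlapped, and PP1 clone a was only just above MEKi clone b. The log2 fold change was 0.64 ± 0.13 (adjusted p = 0.047, edgeR quasi-likelihood), next to the threshold.

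The last pair concerns the cytoskeleton. Cdc42ep4 encodes an effector of the small GTPase CDC42. It was at 80.9, 89.4 and 87.2 CPM with PP1 and at 59.6, 64.0 and 60.0 CPM with MEKi, against 116 and 123 CPM in DMSO, a log2 fold change of 0.50 ± 0.09 (adjusted p = 0.012, edgeR quasi-likelihood). Enc1 encodes an actin-binding protein of the kelch family. It was at 127, 115 and 122 CPM with PP1 and at 86.3, 105 and 76.5 CPM with MEKi, against 156 and 160 CPM in DMSO, a log2 fold change of 0.45 ± 0.09 (adjusted p = 0.046, edgeR quasi-likelihood). In clone b the difference in Enc1 was only 0.13, against 0.56 and 0.68 in the other clones. Over 17 other settings of the fit, Spry4 and Dusp6 were called in all 17, Id3 and Spry2 in 16, Tiparp in 15 and Noct in 14. Zfp819, Zfp36l1 and Cdc42ep4 were called in 11 each and Enc1 in 8, and no gene of the 10 changed direction in any.

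**Figure D2:**
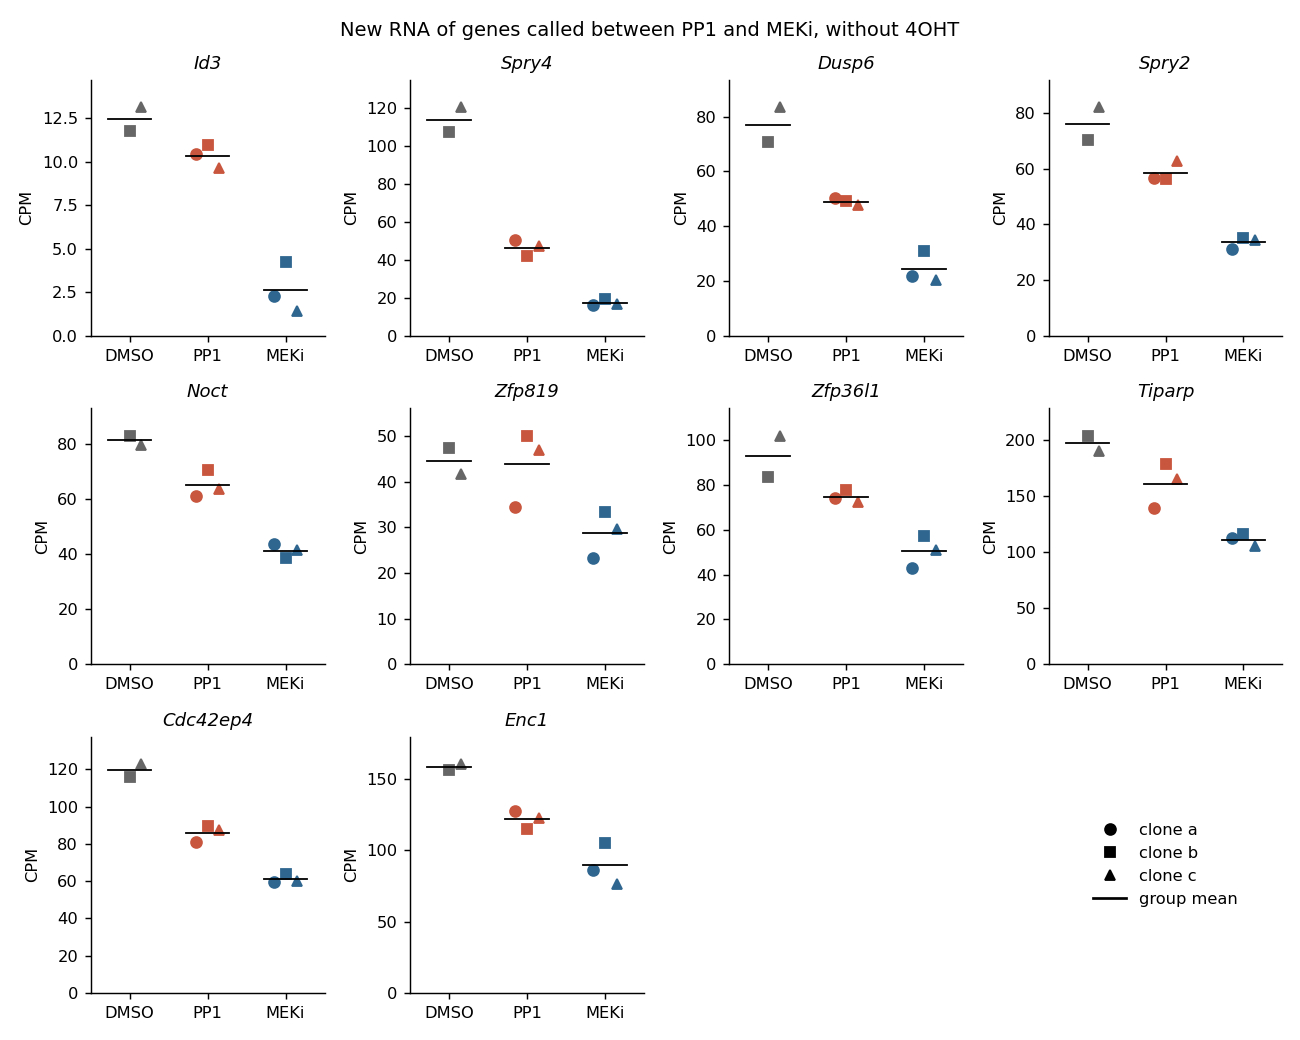
New RNA in CPM (vertical axes, from 0) of the 10 called genes described in each DMSO, PP1 and MEKi library, with the clone as the symbol and the group mean as a line. In each panel the 3 PP1 libraries lie above the 3 MEKi libraries, as for Spry4 at 41.9 to 50.3 against 16.4 to 19.3, and below both DMSO libraries except for Zfp819.

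In mm10 the 10 genes lie on 9 autosomes, among them Id3 at chr4:136143497-136145755, Dusp6 at chr10:99263231-99267489, Spry2 at chr14:105891947-105896819 and Noct at chr3:51224447-51251644, all as the extent of the gene in GENCODE. The strand setting of the counting is not given in the sources used here, so reads of overlapping genes cannot be told apart. In GENCODE this touches Spry4 (Gm27369 and Gm27804 lie within it on the other strand), Noct (Gm38357), Zfp36l1 (Gm26669) and Tiparp (4931440P22Rik), whose values are uncertain to that extent. The other 6 genes overlap no annotated gene. Of the other genes that the naming rule picked, Dusp5, Fosl1, Junb, Phlda1, Map2k1, Yes1, Fyn, Tbx3, Pou5f1, Sox2, Otx2, Gata6, Slc7a7, Ndrg1, Dpysl5, Atp6v0a4 and Nova2 overlap another annotated gene too, and genes named outside the rule were not checked for this.

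Because the called genes include known targets of ETS factors, which ERK phosphorylates, the 250 bases upstream of the annotated start were read from RefSeq (GRCm38.p6). Of the 10 genes, 8 had an entry there; Spry4 and Enc1 had none. Among the called genes described with an entry free of any annotated exon, Dusp6, Spry2 and Noct had the largest fold changes. Their windows are shown. Each is written 5′ to 3′ on the strand of the gene, and capitals mark GGAA, the core that ETS factors recognise, or its reverse complement TTCC.
Dusp6, chr10:99262981-99263230, plus strand: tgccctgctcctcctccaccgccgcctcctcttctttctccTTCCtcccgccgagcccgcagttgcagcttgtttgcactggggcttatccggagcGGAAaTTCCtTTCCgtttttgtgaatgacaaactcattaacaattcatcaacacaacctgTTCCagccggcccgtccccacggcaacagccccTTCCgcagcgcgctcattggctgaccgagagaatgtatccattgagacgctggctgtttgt
Spry2, chr14:105896820-105897069, minus strand: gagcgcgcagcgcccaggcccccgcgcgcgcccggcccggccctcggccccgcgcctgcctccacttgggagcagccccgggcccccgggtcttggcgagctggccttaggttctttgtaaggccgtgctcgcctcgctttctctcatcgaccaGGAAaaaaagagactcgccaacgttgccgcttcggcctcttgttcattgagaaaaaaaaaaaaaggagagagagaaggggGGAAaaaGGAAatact
Noct, chr3:51224197-51224446, plus strand: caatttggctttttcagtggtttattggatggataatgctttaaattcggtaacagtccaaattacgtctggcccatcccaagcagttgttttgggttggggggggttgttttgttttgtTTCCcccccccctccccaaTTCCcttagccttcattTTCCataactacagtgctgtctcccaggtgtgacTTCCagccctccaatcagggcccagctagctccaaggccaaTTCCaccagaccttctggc

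The Dusp6 window held 6 matches of the core, 3 of them clustered between 154 and 144 bases upstream of the start. Spry2 held 3, with 2 of them within 16 bases of the start, and Noct held 5. The core is short and common: all 8 windows held 2 to 6 matches, but 93.4% of all 32851 RefSeq promoter windows of this length held at least 1, with a median of 3. The longer ETS form CCGGAA, which contains the core, was found in 1 of 8 (Tiparp) and in 12% of all windows, and the AP-1 element TGANTCA in 1 of 8 (Zfp36l1) and 6.75%. The CArG box bound by serum response factor and the cyclic AMP element TGACGTCA were in 0 of 8, against 1.47% and 1.55% of all windows. Both strands were searched, and a match is a run of letters, not a bound site.

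Set against untreated cells, the 10 genes were all below DMSO with MEKi, and PP1 lay between. The mean level with MEKi was 15.4% to 64.4% of the DMSO mean (median 51.0%) and with PP1 40.8% to 98.3% (median 78.4%). The lowest DMSO library lay above the highest MEKi library in 10 of 10 and above the highest PP1 library in 9 of 10, Zfp819 being the exception. By the edgeR quasi-likelihood test 10 of the 10 fell with MEKi against DMSO, where 0.449% of all genes did, and 3 of the 10 fell with PP1 against DMSO, where 0.161% did. Those 3 were Spry4 (log2 -1.30 ± 0.10 with PP1 and -2.70 ± 0.11 with MEKi), Dusp6 (-0.65 ± 0.11 and -1.68 ± 0.12) and Cdc42ep4 (-0.47 ± 0.09 and -0.97 ± 0.09). These comparisons share the DMSO libraries with each other, and the PP1 and MEKi libraries with the one that chose the genes, so the counts are a description. Over all genes, 67 fell and 12 rose (0.0805%) with MEKi, and 24 fell and 12 rose (0.0805%) with PP1. DMSO has no clone a, and without its clone c library the totals called drop from 79 to 19 and from 36 to 3.

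The inhibitors did not rank the genes in 1 order, although these shares were not tested against each other. Under PP1 the lowest shares of the DMSO mean were those of Spry4 (40.8%), Dusp6 (63.6%) and Cdc42ep4 (71.9%), and under MEKi those of Spry4 (15.4%), Id3 (21.4%) and Dusp6 (31.8%). Id3 was thus near the bottom under MEKi and at 83.2% under PP1.

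Egr1 and Junb, early genes that ERK is known to induce, had MEKi and PP1 libraries that overlapped. Egr1 was low under both inhibitors, while Junb was at means of 55.3% (MEKi) and 62.9% (PP1) of DMSO. Egr1, an immediate early transcription factor gene, was at 41.3 and 57.1 CPM in DMSO, at 7.19, 5.56 and 3.59 CPM with MEKi and at 8.17, 5.08 and 5.51 CPM with PP1. The MEKi and PP1 libraries overlapped, at means of 11.1% and 12.7% of DMSO, and both falls passed the edgeR quasi-likelihood test (adjusted p = 6.8e-09 and 2.8e-08). The difference between the inhibitors was log2 0.14 with an approximate 95% interval from -0.36 to 0.65. Junb, which encodes an AP-1 subunit and overlaps Prdx2, was at 18.8 and 22.6 CPM in DMSO, at 9.46, 13.1 and 11.8 CPM with MEKi and at 15.3, 11.1 and 12.6 CPM with PP1. Its difference of 0.15 (interval -0.20 to 0.49) was not called, and of its falls from DMSO the one with MEKi passed the edgeR quasi-likelihood test (adjusted p = 0.01) and the one with PP1 did not (0.08).

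Myc, the growth-promoting transcription factor gene, missed the threshold by a little. It was at 19.7, 14.0 and 14.5 CPM with PP1, at 10.1, 8.18 and 6.02 CPM with MEKi and at 20.1 and 26.0 CPM in DMSO, so the groups did not overlap and PP1 was higher in 3 of 3 clones. The log2 fold change was 0.96 ± 0.19 (interval 0.57 to 1.36; adjusted p = 0.051, edgeR quasi-likelihood), a larger difference than in 7 of the 10 called genes described. It was called in 4 of 17 other settings. Nr0b1, a gene of naive pluripotency chosen for mention after its values were seen, had the same adjusted p of 0.051. It was at 83.5, 80.9 and 70.3 CPM with PP1 and at 45.4, 57.4 and 40.7 CPM with MEKi, against 84.5 and 79.5 CPM in DMSO, a log2 fold change of 0.72 ± 0.14. In that gene PP1 libraries overlapped the DMSO libraries while MEKi libraries were all below it.

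Other feedback and early genes gave intervals of differing width, and none of them was called. Dusp4, a nuclear ERK phosphatase gene, was at 13.8, 17.1 and 13.6 CPM with PP1 and at 10.7, 12.9 and 8.05 CPM with MEKi (log2 0.54, interval 0.22 to 0.87), without overlap. Phlda1 was at 3.83, 2.99 and 3.31 against 2.40, 2.45 and 1.84 CPM (0.58, interval 0.11 to 1.04), again without overlap. Fos, at 1.79, 3.19 and 3.31 against 2.65, 0.654 and 1.46 CPM, had overlapping libraries and a wide interval (0.84, from 0.15 to 1.54).

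The ETS factor genes of the PEA3 group had small differences that were not called. Etv4 was at 12.3, 15.2 and 12.1 CPM with PP1 and 13.0, 12.1 and 10.8 CPM with MEKi (0.17, interval -0.10 to 0.44), and Etv5 at 337, 356 and 337 against 308, 316 and 305 CPM (0.15, interval 0.002 to 0.30). The Etv5 libraries did not overlap, and its PP1 level was higher in all clones. Etv1 had a log2 fold change of 0.21. The intervals of Etv4 and Etv5 exclude the 1.40 found for Spry4. For Arc (0.03, from -0.25 to 0.32), Dusp5 (-0.07, from -0.44 to 0.29), Fosl1 (0.11, from -0.36 to 0.58) and Ier3 (-0.03, from -0.54 to 0.47) the libraries overlapped.

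**Figure D3:**
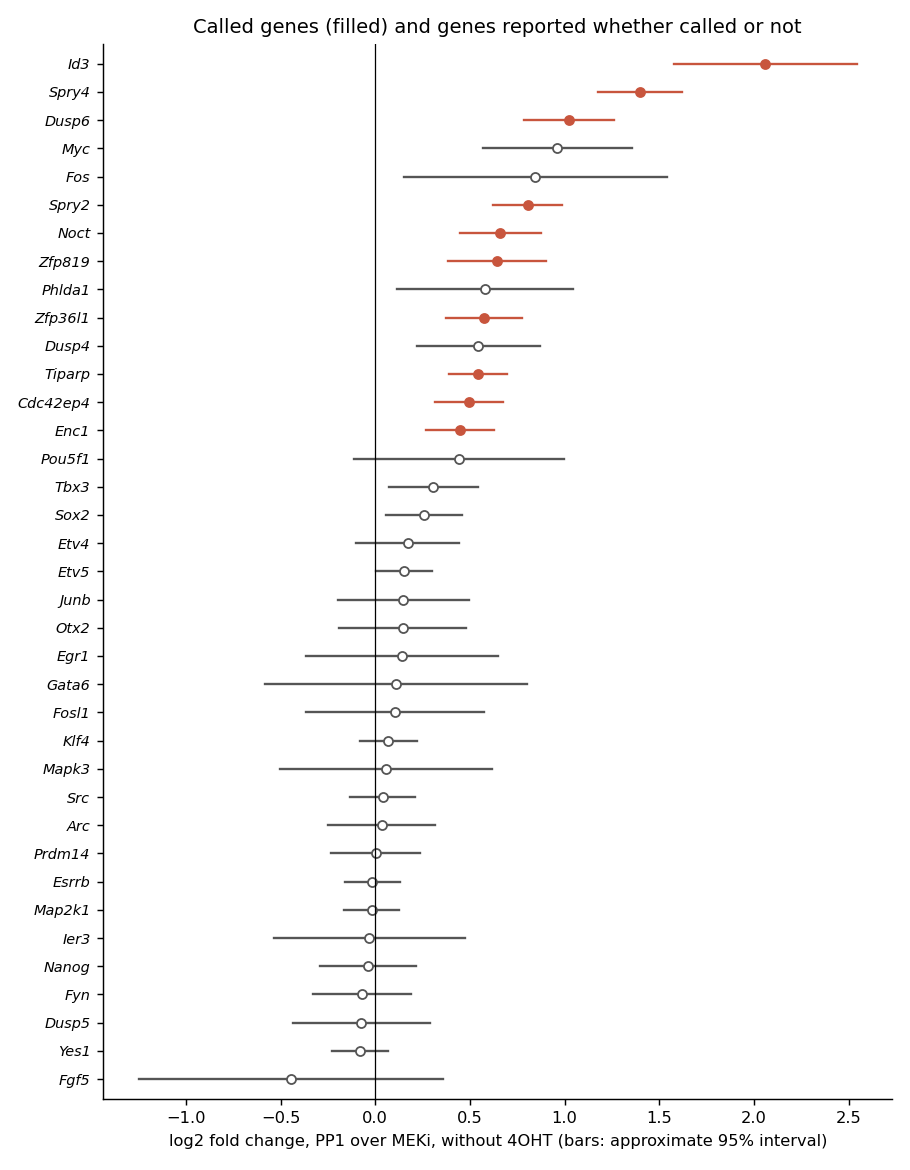
Log2 fold change of PP1 over MEKi without 4OHT (horizontal axis) for the 10 called genes described (filled) and for signalling and lineage genes given whether called or not (open), with approximate 95% intervals as bars. Spry4 (1.40), Dusp6 (1.02) and Spry2 (0.80) lie clear of 0, whereas the intervals of Egr1, Etv4, Arc, Src and Nanog include it.

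Read by gene list, few members of any one were called. Of 30 lists, 26 had no called member. The list of ERK feedback genes and ETS targets had 3 of 29 members higher (Spry4, Dusp6 and Spry2) and 0 lower, with a median log2 fold change of 0.11 against -0.01 over all genes; at an unadjusted p under 0.05, 8 were higher and 0 lower, where 2.01% of all genes were higher and 2.05% lower. Within it the sprouty-related genes Spry1 (0.14), Spred1 (0.14), Spred2 (-0.03) and Spred3 (0.02) were not called. Immediate early genes had 1 of 30 members called, Zfp36l1, with a median of 0.15. At an unadjusted p under 0.05, 6 of them were higher and 1 lower. The list of BMP pathway and ID genes had 1 of 19, Id3, with a median of -0.01, and 3 higher and 0 lower at that unadjusted threshold. Of the 10 genes described, 5 stood in any list, and the other 5 were Noct, Zfp819, Tiparp, Cdc42ep4 and Enc1.

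PP1 is known for its action on Src family kinases, and the genes tied to them were read separately. Of 27 tested genes of the Src family, of adhesion and of YAP targets, 0 were called in either direction by the edgeR quasi-likelihood test, with a median of -0.02. At an unadjusted p under 0.05, 1 was higher and 0 lower. Over all genes 0.0738% were called higher and 0 lower, and 2.01% were higher and 2.05% lower unadjusted. Counts this low are therefore the background for a list of this size. Of 25 cytoskeletal targets of SRF and its MRTF cofactors, 0 were called, with a median of 0.02 and 1 gene in each direction at an unadjusted p under 0.05. Src was at 89.1, 101 and 105 CPM with PP1 and at 96.4, 84.7 and 106 CPM with MEKi (0.04, interval -0.13 to 0.21). The libraries overlapped, as did those of Yes1 (-0.08, from -0.23 to 0.07) and Fyn (-0.07, from -0.33 to 0.19). These values describe transcription and do not measure kinase activity.

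The genes of the RAS, RAF, MEK and ERK pathway had 0 of 33 members called, with 0 in either direction at an unadjusted p under 0.05 and all log2 fold changes between -0.21 and 0.22. With 0.0738% of all genes called, and 2.01% higher and 2.05% lower unadjusted, a list of this size would hold few or none. Map2k1, the gene of MEK1, was at 200, 206 and 208 CPM with PP1 and at 203, 195 and 222 CPM with MEKi (-0.02, interval -0.16 to 0.13).

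Naive pluripotency genes had 0 of 23 members called and a median of 0.07, with 4 higher and 0 lower at an unadjusted p under 0.05, against 2.01% and 2.05% of all genes. Nanog, the homeodomain factor of the naive state, was at 399, 300 and 319 CPM with PP1 and at 348, 357 and 336 CPM with MEKi (-0.04, interval -0.29 to 0.22). Prdm14 (0.00, from -0.23 to 0.24), Klf4 (0.07, from -0.08 to 0.22) and Esrrb (-0.02, from -0.16 to 0.13) overlapped as well. Tbx3, at 412, 372 and 433 against 325, 308 and 350 CPM, did not overlap but was not called (0.31, interval 0.07 to 0.54; adjusted p = 0.98, edgeR quasi-likelihood). Pou5f1, the gene of OCT4, had both its highest and its lowest level in 1 clone, at 253 CPM with PP1 and 102.6 CPM with MEKi in clone a, against 133 and 174 in clone b and 155 and 118 in clone c. Its interval ran from -0.11 to 1.00. Of genes of later fates, Otx2 (0.14, from -0.19 to 0.48), Fgf5 (-0.44, from -1.25 to 0.36) and Gata6 (0.11, from -0.58 to 0.80) were not called, the last pair at levels of 1.09 to 3.57 CPM. The formative and primed epiblast list, which holds Otx2 and Fgf5, had 0 of 19 members called and a median of 0.15. At an unadjusted p under 0.05, 4 of its members were higher and 0 lower. The primitive endoderm list, which holds Gata6, had 0 of 19 called and 0 in either direction at that threshold.

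Replication-dependent histone genes gave 0 called members of 20, yet every log2 fold change was above 0 (0.01 to 0.49, median 0.25). At an unadjusted p under 0.05, 0 were higher and 0 lower. Only 3 of the 20 were higher in all 3 clones, where 1365 of all 14907 genes were. Against DMSO 4 of the 20 rose with MEKi (median 0.85) and 6 with PP1 (median 1.08), by the edgeR quasi-likelihood test, where 12 of all genes (0.0805%) rose in each comparison. The 15 long-lived abundant mRNAs were listed as a possible sign of RNA captured without a label. Every library here was labelled, so that use of the list could not be checked. These mRNAs likewise had 0 called and all values above 0 (median 0.23), but only 1 of the 15 was higher in all 3 clones. The share of the high-count loci was largest in PP1 clone a. The part of such RNA or of the loci in the histone values was not tested. Their copies are nearly identical, so single histone genes are uncertain.

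The same pair of inhibitors was compared in 6 other libraries of the same clones, with 4OHT. There 2263 genes were higher with PP1 (15.2%) and 1936 lower (13.0%) by the edgeR quasi-likelihood test. All 10 genes were among the higher ones, 100% of the 10 and 0.442% of the 2263, with no overlap of libraries in any of the 10. Spry4 was at 837, 730 and 758 CPM with PP1 and 4OHT and at 1.52, 2.20 and 1.08 CPM with MEKi and 4OHT, a log2 fold change of 8.91 ± 0.14 (482-fold). The levels with MEKi and 4OHT rest on 16, 22 and 11 counts, so the ratio has a denominator near the floor. Dusp6 was at 153, 149 and 162 against 5.51, 5.89 and 5.20 CPM (4.81 ± 0.13), and Tiparp at 231, 231 and 224 against 59.9, 59.0 and 61.7 CPM (1.93 ± 0.08), the smallest difference of the 10. Under MEKi with 4OHT each of the 10 had a lower mean than under MEKi alone, and under PP1 with 4OHT each had a higher mean than in DMSO, neither of which was tested.

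The interaction term, the difference between the inhibitors with 4OHT minus that without, was called higher for 10 of 10 genes, from 1.38 for Tiparp to 7.51 for Spry4; it was called higher in 7.41% of all genes and lower in 4.86%. It contains the contrast that chose the genes. Without TMM scaling, that is with library totals only, 30.7% rather than 53.9% of the genes called with 4OHT were higher with PP1, while the all-gene median (log2) went from -0.02 to -0.14. Among the named genes not called without 4OHT, Egr1 had the largest difference with it, at 181, 181 and 166 CPM with PP1 and 4OHT and at 0.9499, 1.198 and 1.57 CPM with MEKi and 4OHT (7.14 ± 0.20; interaction 6.995 ± 0.35). Its levels with MEKi and 4OHT rest on 10, 12 and 16 counts.

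**Figure D4:**
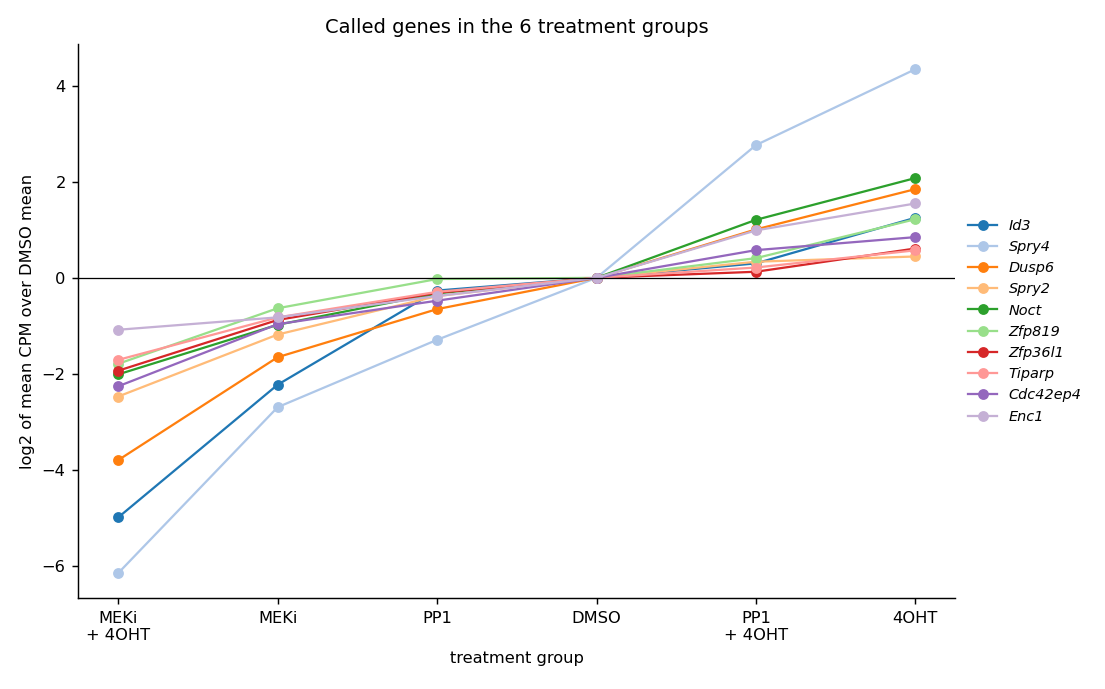
Mean CPM of the 10 called genes described in each of the 6 treatment groups, as log2 of the ratio to the DMSO mean (vertical axis), with lines that only join the points of 1 gene. Without 4OHT the genes lie lower with MEKi than with PP1, and with 4OHT the 2 inhibitors lie on opposite sides of DMSO, most widely for Spry4.

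**Figure D5:**
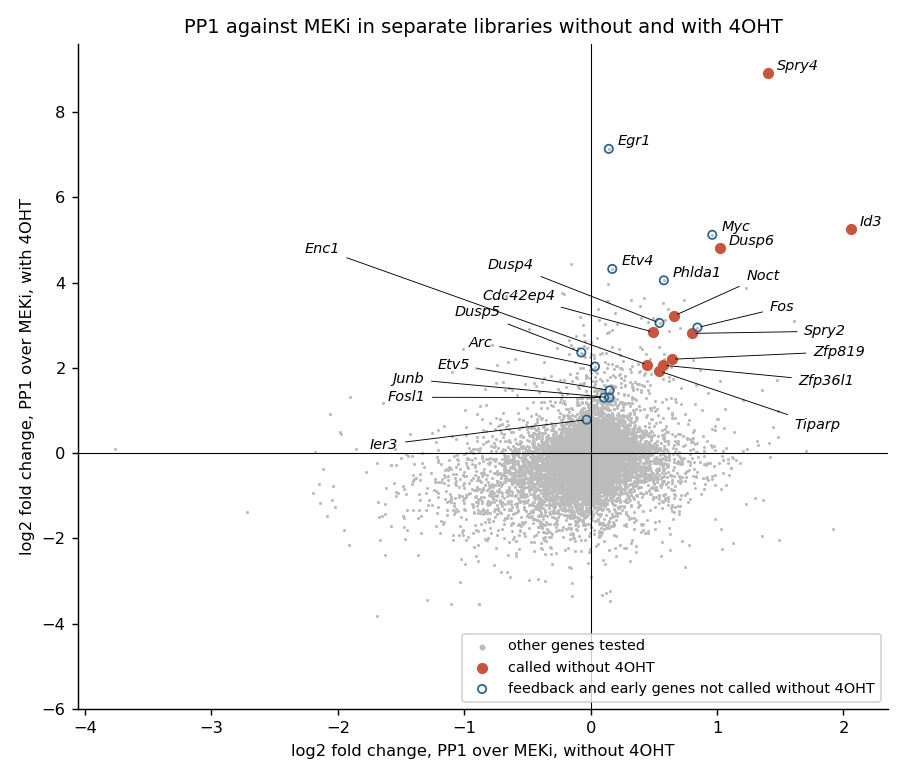
Log2 fold change of PP1 over MEKi without 4OHT (horizontal axis) and with 4OHT in separate libraries (vertical axis), with 1 point per gene, the 10 called genes described in red and 12 feedback and early genes not called without 4OHT as open circles. The red points lie at or right of 0.45 and at or above 1.93, while Egr1, at 0.14 and 7.14, lies on the vertical line near 0.

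Genes that answer RAF activation were defined in libraries apart from the 6, by 4OHT against DMSO, where 25.7% of all genes rose and 26.3% fell. Of 952 genes at least 2-fold higher with 4OHT, 6 were called higher between PP1 and MEKi without 4OHT and 0 lower. Among all 14907 genes tested, 11 (0.0738%) were called higher and 0 lower. The median log2 fold change of the 952 was 0.01. At an unadjusted p under 0.05, 52 of them (5.46%) were higher and 17 (1.79%) lower, against 2.01% and 2.05% of all genes. Of the 320 that rose at least 4-fold, 2 were called higher, with a median of 0.00. Of 1796 genes at least 2-fold lower with 4OHT, 0 were called, with a median of -0.03, and 26 (1.45%) were higher and 42 (2.34%) lower at an unadjusted p under 0.05. All 10 genes described were higher with 4OHT than in DMSO by the edgeR quasi-likelihood test, from log2 0.45 ± 0.09 for Spry2 to 4.35 ± 0.11 for Spry4. Among genes answering most to 4OHT, 81 of the 320 averaged under 1 CPM in the 6 libraries, where a difference between the inhibitors was not detectable unless large.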

How the data were processed

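New RNA was measured in 17 libraries of mouse embryonic stem cells in 6 groups. The deposited table holds raw counts per gene symbol, 1 column per library, whole numbers with no normalization. Per the submitters' processing notes, the authors used STAR, featureCounts and the mm10 build to obtain these counts; the sources used here do not give versions, annotation, strand setting or the treatment of reads with several positions. Per the labels' protocols, RNA was labelled with 5 mM ethynyl uridine for 15 min and captured with click chemistry before libraries were made with an NEB kit. Columns were matched to samples by treatment and clone; the column of PP1 clone c carries an extra letter that the labels do not explain. Of 25899 symbols, 25595 (98.83%) matched GENCODE mouse release M21 for coordinates.

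The tests used edgeR 4.0.16 and limma 3.58.1 in R 4.3.3. Libraries were scaled by TMM, filterByExpr left 14907 genes, and glmQLFit (robust) took the 17 libraries in 1 model of 6 group means. Residual degrees of freedom were 11, and the common BCV (biological coefficient of variation) was 0.0977. Fitting all groups together makes them share 1 estimate of the spread. The threshold for a call was 0.05 on the two-sided p after Benjamini-Hochberg adjustment over all genes tested, in each of 6 contrasts. Levels are CPM after TMM scaling, and clone differences are of log2 CPM with a prior count of 2. Standard errors were derived from the log2 fold change and its F statistic, and the 95% intervals made from them are approximate.

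Named genes were the called genes of largest change in each direction (up to 12, average log2 CPM of at least 1, the same direction in 3 clones, informative symbols), the called members of each gene list (up to 6), signalling and lineage genes whether called or not, and the 5 genes of smallest interaction p in each direction. Some genes picked this way are not reported. The comparison, the 30 gene lists and the markers were chosen with earlier results of these data known. Promoter windows came from RefSeq. The script was tested on simulated counts.

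The clone letter pairs libraries across groups, since the same clones were treated. After subtraction of group means, deviations across genes correlated with a mean r of 0.086 in 40 pairs of the same clone (-0.15 to 0.36, 16 above 0.1) and of -0.043 in 80 pairs of different clones; between PP1 and MEKi it was 0.048, -0.10 and 0.20 for clones a, b and c. The alternatives were other scalings and filters, clone as a block, 14 high-count loci left out, only the libraries compared, libraries or clone a left out, limma-voom, DESeq2 1.42.0 and a 2-fold minimum.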

Additional observations from a re-analysis of the deposited data

Results flagged for a closer look

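These genes stood out because the difference between PP1 and MEKi was not the same with 4OHT as without it, by the interaction term of the edgeR quasi-likelihood fit (adjusted p under 0.05). Each value is the log2 difference of PP1 against MEKi with 4OHT minus that without.

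The 10 genes described that differed without 4OHT all differed more with it. The values were 7.51 for Spry4, 3.78 for Dusp6, 3.19 for Id3, 2.56 for Noct, 2.34 for Cdc42ep4, 2.00 for Spry2, 1.62 for Enc1, 1.56 for Zfp819, 1.49 for Zfp36l1 and 1.38 for Tiparp. With MEKi and 4OHT, Spry4 had 16, 22 and 11 counts and Id3 had 4, 5 and 3, so the sizes of these 2 values rest on few counts.

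Of the 34 other named genes, 16 had a positive interaction and 8 a negative one, where 7.41% of all genes were called higher and 4.86% lower. In 7 of the 34 this was fixed by the choice, since they were named for the smallest interaction p (2 positive and 5 negative); the other 27 had 14 positive and 3 negative. Among early and feedback genes the values were 6.995 for Egr1, 4.16 for Myc, 4.15 for Etv4, 3.48 for Phlda1, 2.69 for Spred1, 2.51 for Dusp4, 2.43 for Dusp5, 2.10 for Fos, 2.00 for Arc, 1.32 for Etv5, 1.195 for Fosl1 and 1.16 for Junb. The amino acid transporter gene Slc7a7, which overlaps Oxa1l, had 4.59, the epiblast gene Fgf5 2.08, Otx2 0.71 and Esrrb 0.42.

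The negative values were -2.85 for Atp6v0a4, a subunit gene of the vacuolar proton pump that overlaps Tmem213, -2.15 for Ndrg1, -1.79 for Gata6, -1.44 for Nova2, -1.28 for Dpysl5 and -1.18 for Mok. Ndrg1, Dpysl5 and Nova2 overlap other annotated genes as well. The naive pluripotency genes Prdm14 and Nanog had -0.88 and -0.81. Without 4OHT, Ndrg1 was at 29.0 ± 2.18 CPM with PP1 and 26.9 ± 3.03 CPM with MEKi (SD, n = 3), and with 4OHT at 11.3 ± 0.546 and 47.1 ± 2.60 CPM. Its libraries without 4OHT overlapped and that difference was not called.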

How the results depend on the processing

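The main count of 11 genes (PP1 against MEKi without 4OHT) was 11 with DESeq2 size factors, with a filter of 10 counts and without the high-count loci, 10 without the loci and TMM, 15 without a filter and 12 by limma-voom. It was 3 with library totals only (Spry4, Dusp6 and Id3), 3 with only the libraries compared (Spry4, Dusp6 and Spry2), 3 at 2-fold or more and 20 by DESeq2, and 6 to 13 with 1 library left out. With clone as a replicate block it was 14, with Zic2, Dppa2 and Nr0b1 added and none lost. The DESeq2 calls were 19 higher and 1 lower, Med24, whose library values were 3185, 81.0 and 280.2 CPM with MEKi and 61.8, 59.4 and 137 CPM with PP1, so the difference rests on MEKi clone a.

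With library totals the count with 4OHT was 2153 (main 4199), the interaction 514 (1829), MEKi against DMSO 20 (79) and PP1 against DMSO 14 (36). At 2-fold or more these were 976, 591, 15 and 13. With only the libraries compared the DMSO comparisons gave 23 and 6, without clone a 38 and 14 (and 2729 with 4OHT), and by DESeq2 132 and 85. The block gave 120 for MEKi against DMSO, and leaving out the loci 23 for PP1 against DMSO. With 1 library left out the ranges were 3254 to 3738, 1438 to 1988, 19 to 52 and 3 to 32. With the loci left out and totals only, 31.1% of calls with 4OHT were higher (53.9% in the main fit) and 36.6% of interaction calls (60.4%). The cause was not tested.

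No gene-level call changed direction. Of the values for single genes between PP1 and MEKi, 585 kept their side of the threshold, 34 fell short of it and 4 newly passed it (all Myc). A further 6 stayed uncalled but changed sign, with a shift larger than their standard error. All 230 interaction values kept theirs. Depth limits genes under 1 CPM, such as 839 of the 14907 in the 6 libraries.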

Other observations

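The genes added when clone was a block were chosen for mention after their values were seen. Zic2, a zinc finger factor gene, was at 32.9, 32.7 and 25.2 CPM with PP1 and at 21.6, 21.6 and 15.5 CPM with MEKi in clones a, b and c, against 35.5 and 32.9 CPM in DMSO. Dppa2, a pluripotency-associated gene, was at 52.1, 59.6 and 53.1 CPM with PP1 and at 42.6, 40.7 and 39.2 CPM with MEKi, against 69.1 and 61.7 CPM in DMSO. In both genes the PP1 libraries lay above the MEKi libraries without overlap, with log2 fold changes of 0.64 ± 0.14 and 0.44 ± 0.10 (adjusted p = 0.18 each without the block, edgeR quasi-likelihood).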
